A study of Homo sapiens with 7 samples.

Results

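The enzymes that write and erase methylation of histone H3 lysine 27 were followed in human embryonic stem cells (hESCs) forced to express the catalytic part of the demethylase JMJD3. The set holds 10 genes, chosen by name among the 22670 gene entries of each RNA-seq library. They are the demethylases KDM6B (JMJD3) and KDM6A (UTX), the methyltransferases EZH2 and EZH1, the core subunits EED, SUZ12 and RBBP4, and the accessory subunits JARID2, MTF2 and PHF19 of Polycomb repressive complex 2 (PRC2). Each name had 1 entry, and all 10 were measured above 0 FPKM (a read level scaled to transcript length and to library size) in every library. The cells were SEES-3 hESCs, an established line made to express the reverse Tet-transactivator, and they were kept in StemFit AK-03 medium on iMatrix-511 without feeders. JMJD3c-hESCs carried HA-tagged JMJD3c under a doxycycline (Dox) responsive element in a piggyBac construct, and were sampled before Dox (Day 0) and daily through Days 1, 2, 3 and 4 of treatment (Dox 1 µg/ml). JMJD3c mut-hESCs carried the same construct with a point mutation that removes catalytic activity, and provided an untreated library and a library from Day 4 of treatment. The transactivator and the puromycin-selected construct were thus shared by all groups, untreated cells included, and whether each line was a single clone is not given in the sources used here.

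PRC2 places methyl groups on lysine 27 of histone H3 and so keeps developmental genes silent in pluripotent cells. EZH2 or the related EZH1 is its catalytic subunit, EED and SUZ12 are required for activity, and RBBP4 is a histone-binding protein shared with other chromatin complexes. JARID2 belongs to a form of PRC2 called PRC2.2, and MTF2 and PHF19 are Polycomb-like proteins that belong to the form called PRC2.1. KDM6A and KDM6B are JmjC-domain enzymes that remove the di- and trimethyl marks.

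Each of the 7 conditions had 1 library, so differences could not be set against a spread of replicates and no p-value could be calculated. The error given is the Cufflinks 95% interval of the FPKM, which covers the estimate within a library and not the variation between cultures. A gene was called higher when its FPKM ratio exceeded 2 and the first sample exceeded 4 FPKM. It was called lower when the ratio was under 0.5 and the second sample exceeded 4 FPKM. Where no overlap was left between the intervals of 2 libraries, they are described as apart. Fold changes on the log2 scale were calculated from FPKM + 1. Library depth, read off the step that 1 read adds to a low value, came to about 3510000 reads for Day 0, the shallowest library, and to at most 7230000, for the untreated mutant line. The cells carried hESC markers, as their labels state: all 7 were detected in every library, with a summed level between 1618 and 2295 FPKM. Detection alone does not show that Dox-treated JMJD3c cells stayed hESCs, and markers of other cell types were measured beside them. Of the 4 fibroblast markers, DCN and LUM were listed at 0 throughout and COL1A1 ranged from 4.18 to 11.3 FPKM, and the list summed to between 4.28 and 11.3. Of the 5 trophoblast and amnion markers, which summed to between 2.99 and 5.24 FPKM, HAND1 and CGA were listed at 0 throughout. In that list GATA3 was listed at 0 at Day 0 and 2.68 FPKM at Day 4, with intervals apart, and KRT7 at 3.98 and 1.06 FPKM, also with intervals apart. The hESC sum was 2295 FPKM at Day 0 and 1618 at Day 4. The 7 mesoendoderm markers summed to 5.49 FPKM at Day 0, 176 at Day 4 and at most 9.32 in the mutant line. The 4 neuroectoderm markers summed to 7.22 FPKM before Dox, 32.8 after 1 day, 21.8 at Day 4 and at most 7.14 in the mutant line, with ZIC1 and PAX6 called higher at Day 4 and intervals overlapping Day 0. The part of these markers in the results for the 10 genes was not tested. In bulk RNA, fewer cells of a type and less RNA per cell cannot be told apart.

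Promoter sequences are shown for the genes whose values turned out to move most clearly in opposite directions, EZH2 on the one side and JARID2 and MTF2 on the other. RefSeq windows (GRCh38.p14) were found for all 10 genes, 15 in all, and were trimmed to the 250 bases before the start. The first window of each of the 3 genes is printed 5′ to 3′, on the strand of the gene, with the capitals marking the motifs CCAAT and GGGCGG on either strand. The windows are chr7:148884292-148884541 (minus strand) for EZH2, chr6:15245819-15246068 (plus strand) for JARID2 and chr1:93079033-93079282 (plus strand) for MTF2.
EZH2: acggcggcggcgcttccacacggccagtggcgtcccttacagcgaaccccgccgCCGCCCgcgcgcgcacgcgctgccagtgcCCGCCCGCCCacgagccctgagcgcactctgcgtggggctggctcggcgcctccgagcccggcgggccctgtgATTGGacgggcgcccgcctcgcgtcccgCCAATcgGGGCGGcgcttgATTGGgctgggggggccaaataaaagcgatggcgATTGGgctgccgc
JARID2: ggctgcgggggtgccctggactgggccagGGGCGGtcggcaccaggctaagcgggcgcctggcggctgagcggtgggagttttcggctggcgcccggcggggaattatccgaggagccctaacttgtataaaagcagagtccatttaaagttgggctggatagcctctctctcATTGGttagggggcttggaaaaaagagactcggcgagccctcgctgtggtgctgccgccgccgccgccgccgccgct
MTF2: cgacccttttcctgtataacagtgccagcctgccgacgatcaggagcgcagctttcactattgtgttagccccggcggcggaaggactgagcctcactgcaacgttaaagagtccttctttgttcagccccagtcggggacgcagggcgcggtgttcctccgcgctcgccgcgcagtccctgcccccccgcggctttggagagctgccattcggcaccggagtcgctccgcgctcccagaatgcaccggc
The EZH2 window held CCAAT 4 times and GGGCGG 4 times, the JARID2 window held each motif 1 time, and the MTF2 window, the only one of its gene, held neither. The counts depended on the window, since the second window of EZH2 held CCAAT 0 times and GGGCGG 1 time, and that of JARID2 held them 0 and 4 times. Among all 35116 windows of this length, 32.0% held CCAAT and 42.6% held GGGCGG. Over the 15 windows of the set, 9 held CCAAT and 12 held GGGCGG. CG dinucleotides numbered 38 in the window of EZH2, 22 in that of JARID2 and 25 in that of MTF2, against a median of 11 over all windows. These matches describe the letters only and show no binding.

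KDM6B, the gene whose catalytic part the transgene carries, gave a check of the Dox labels. KDM6B (ENSG00000132510, chromosome 17 of hg19, 7743222 to 7758114, plus strand) had 3.45 FPKM at Day 0, then 158, 212, 248 and 282 FPKM over Days 1, 2, 3 and 4. In the mutant line it had 2.40 FPKM without Dox and 454 FPKM with Dox. The 5 libraries with Dox were thus far above the 2 without it, as their Dox labels state. A point mutation does not show in a level per gene, so the labels of active and mutant lines were not checked. Intervals of consecutive days were apart at every step, with ratios of 45.8, 1.34, 1.17 and 1.14. The Day 4 level was 0.621 times that of the mutant line with Dox (range allowed by the intervals, 0.577 to 0.661). KDM6B RNA was thus more abundant in the line with the inactive form. Reads of the transgene, which is human KDM6B sequence, count toward these values, so endogenous KDM6B could not be measured apart from it in Dox-treated cells. KDM6B took 0.0558% of the summed FPKM at Day 4 and 0.0979% in the mutant line with Dox. Among 9688 genes with a mean above 4 FPKM, the profiles most like it were those of LUZP6, CHTF8 and FOXA2, with mean absolute differences of 1.08, 1.33 and 1.46 on the log2 scale over the 7 libraries. No gene thus came near the KDM6B profile. LUZP6 and CHTF8 overlap other entries to which the same reads could be assigned, and FOXA2, an endoderm regulator, stayed at 2.27 FPKM in the mutant line with Dox.

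KDM6A, the other H3K27 demethylase of the set, had its lowest values from Day 2 of JMJD3c, mostly with overlapping intervals. KDM6A (ENSG00000147050, chromosome X, 44732757 to 44971847, plus strand) had 28.6 FPKM at Day 0, then 30.0, 20.8, 21.2 and 17.8 FPKM over Days 1, 2, 3 and 4. The untreated mutant line was at 30.3 FPKM and the Dox-treated one at 27.2. The 3 latest days of JMJD3c were therefore the 3 lowest libraries, and Day 4 was the lowest. At Day 4 the interval (12.8 to 23.0) overlapped that of Day 0 (19.4 to 37.8) and lay just under that of the untreated mutant line (23.7 to 36.8). It also overlapped that of the mutant line with Dox (20.3 to 34.1). The intervals of Day 2 (15.2 to 26.3) and Day 3 (15.8 to 26.6) overlapped those of Day 0 and of both mutant libraries. The ratio of Day 4 was 0.622 against Day 0 and 0.588 against the untreated mutant line, neither of which passed the cutoff. In the mutant line Dox gave a ratio of 0.897, with overlapping intervals. Before Dox, the level of KDM6A was above that of KDM6B by far: KDM6B was 0.121 times KDM6A at Day 0 and 0.0794 times in the untreated mutant line. With Dox at Day 4 these ratios were 15.8 and 16.7. The transgene holds only the catalytic part of KDM6B, so the ratios with Dox do not compare whole transcripts.

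EZH2, the main methyltransferase of proliferating cells, was highest at Day 4. EZH2 (ENSG00000106462, chromosome 7, 148504476 to 148581413, minus strand) had 27.5 FPKM at Day 0, then 31.8, 29.2, 30.8 and 41.5 FPKM on the following days. The mutant line was at 30.9 FPKM without Dox and 33.5 with it. The other 6 libraries thus lay within a narrow band, and Day 4 stood above it. The Day 4 interval (35.7 to 47.4) was apart from those of Day 0 (21.8 to 33.4), Day 3 (26.6 to 34.9) and the untreated mutant line (26.7 to 35.2), but overlapped that of the mutant line with Dox (29.0 to 37.9). The ratio of Day 4 to Day 0 was 1.51, under the cutoff, with an allowed range from 1.07 to 2.18. Relative to the mutant line with Dox it was 1.24, with a range from 0.940 to 1.64. Of the 8 markers of proliferation, 7 were below Day 0 at Day 4, CDC6 being the exception, and intervals were apart for CCNB1 only. The summed level of these markers was 634 FPKM, against 725 at Day 0 and 763 to 765 in the mutant line. Their part in the level of EZH2 was not tested.

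**Figure D1:**
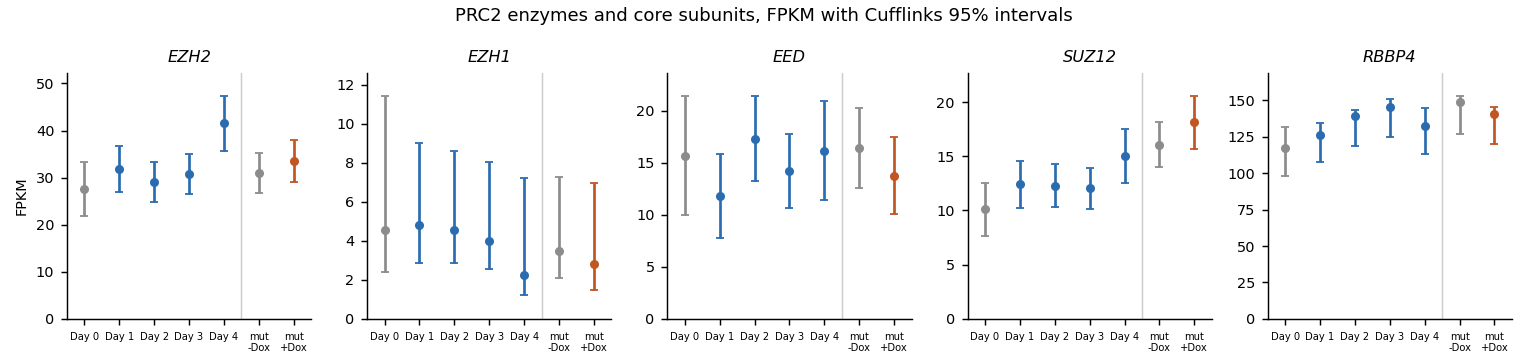
FPKM (vertical axes, linear from 0) of the PRC2 enzymes and core subunits in the 7 libraries, with the Cufflinks 95% intervals as bars; gray points are untreated, blue points JMJD3c with Dox and orange points the mutant with Dox. EZH2 stands highest at Day 4 (41.5 FPKM), while the untreated libraries differ in SUZ12 (10.1 and 16.04 FPKM).

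EZH1, the weaker methyltransferase, was the only member called lower at Day 4, and its intervals overlapped. EZH1 (ENSG00000108799, chromosome 17, 40852293 to 40897071, minus strand) was listed at 4.58, 4.82, 4.55, 4.02 and 2.23 FPKM from Day 0 to Day 4, and at 3.48 and 2.83 FPKM in the mutant line without and with Dox. Day 4 was lowest and Day 1 highest, and the mutant line lay between. The ratio of Day 4 to Day 0 was 0.487, just past the cutoff, but the allowed range ran from 0.105 to 3.02. The interval at Day 4 (1.21 to 7.22) held the values of the other 6 libraries. In each library EZH2 was above EZH1 by ratios from 6.01 at Day 0 to 18.6 at Day 4. The allowed ranges of these 2 ratios overlapped (1.90 to 13.9 and 4.94 to 39.3), since the EZH1 estimate was wide.

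The core subunits EED, SUZ12 and RBBP4 differed less between Day 4 and Day 0 than between the untreated lines. SUZ12 (ENSG00000178691, chromosome 17, 30264037 to 30328064, plus strand) was listed at 10.1, 12.4, 12.3, 12.05 and 15.0 FPKM from Day 0 to Day 4, and at 16.04 and 18.2 FPKM in the mutant line without and with Dox. Its level was thus higher at Day 4 than at Day 0 by a ratio of 1.48, but lower than in the untreated mutant line by a ratio of 0.937. The intervals of the untreated libraries were apart (7.67 to 12.6 and 14.0 to 18.1), and the mutant line with Dox was the highest of all. EED (ENSG00000074266, chromosome 11, 85955586 to 85989855, plus strand), which binds the trimethyl mark, ranged from 11.8 FPKM at Day 1 to 17.3 at Day 2. Its Day 4 value of 16.2 lay between the untreated values of 15.7 and 16.4. RBBP4 (ENSG00000162521, chromosome 1, 33116743 to 33151812, plus strand) was the most abundant PRC2 gene in all libraries. It ranged from 118 FPKM at Day 0 to 149 in the untreated mutant line, with 133 at Day 4. Its entry overlaps that of SYNC on the other strand, and reads could also be shared with near-identical copies, so its level is less certain than its intervals state.

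JARID2, the PRC2.2 subunit, was the member whose level was most clearly lower. JARID2 (ENSG00000008083, chromosome 6, 15246527 to 15522252, plus strand) had 100.3 FPKM at Day 0 (interval 92.7 to 108), then 75.0, 80.2, 75.3 and 57.2 FPKM over Days 1, 2, 3 and 4. The untreated mutant line was at 97.5 FPKM (91.8 to 103), and the mutant line with Dox was at 80.3 (74.9 to 85.7). The 2 untreated libraries thus lay together at the top, all 5 libraries with Dox lay below them with intervals apart, and Day 4 (52.4 to 61.9) lay below all others. The ratio of Day 4 was 0.570 against Day 0 (allowed range 0.485 to 0.668), 0.586 against the untreated mutant line (0.507 to 0.675) and 0.712 against the mutant line with Dox (0.611 to 0.827). In the mutant line, the ratio of Dox to no Dox was 0.823 (0.725 to 0.934). Dox also induces the inactive enzyme there, so the effects of Dox and of that protein cannot be told apart. The mutant line with Dox was sampled at Day 4 only, so active and inactive enzyme could be compared on the same day only then. At Days 1, 2 and 3 the intervals of JMJD3c overlapped that of this Day 4 mutant library. When a difference between active and inactive enzyme began could therefore not be told. The decrease came in 2 steps, from Day 0 to Day 1 (ratio 0.748) and from Day 3 to Day 4 (0.759), with intervals apart at both and overlapping at the steps between. The summed level of the 7 hESC markers was 2295 and 2138 FPKM in the untreated JMJD3c and mutant lines, 1854 in the mutant line with Dox, and 1992, 1815, 1775 and 1618 over Days 1, 2, 3 and 4. The untreated libraries were highest and Day 4 lowest, as for JARID2, while the order of the libraries between them differed. All 7 markers were below Day 0 at Day 4, and their part in the level of JARID2 was not tested.

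MTF2, a Polycomb-like subunit of PRC2.1, was also lower with JMJD3c but not with the inactive form. MTF2 (ENSG00000143033, chromosome 1, 93544792 to 93604638, plus strand) had 49.8 FPKM at Day 0 (42.0 to 57.7), then 40.6, 37.9, 41.7 and 31.8 FPKM over Days 1, 2, 3 and 4. The mutant line was at 48.8 FPKM without Dox (43.6 to 53.9) and 50.5 with Dox (44.8 to 56.3). The 3 libraries without active JMJD3c lay together between 48.8 and 50.5 FPKM, and the 4 with it lay below. Only Day 4 (26.8 to 36.9) was apart from all 3, with ratios of 0.638 (allowed range 0.464 to 0.878), 0.653 and 0.630 against Day 0 and the mutant line without and with Dox. At Day 2 the interval (33.0 to 42.7) was apart from those of both mutant libraries and overlapped that of Day 0. PHF19 (ENSG00000119403, chromosome 9, 123617977 to 123639606, minus strand), the second Polycomb-like gene of the set, was listed at 21.1, 21.03, 14.3, 18.8 and 14.6 FPKM from Day 0 to Day 4, and at 12.8 and 11.6 FPKM in the mutant line. The untreated libraries therefore differed more than Day 4 did from Day 0, and all intervals overlapped. JARID2 was between 1.59 and 2.12 times MTF2 over the 7 libraries, lowest in the mutant line with Dox and highest at Day 2.

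**Figure D2:**
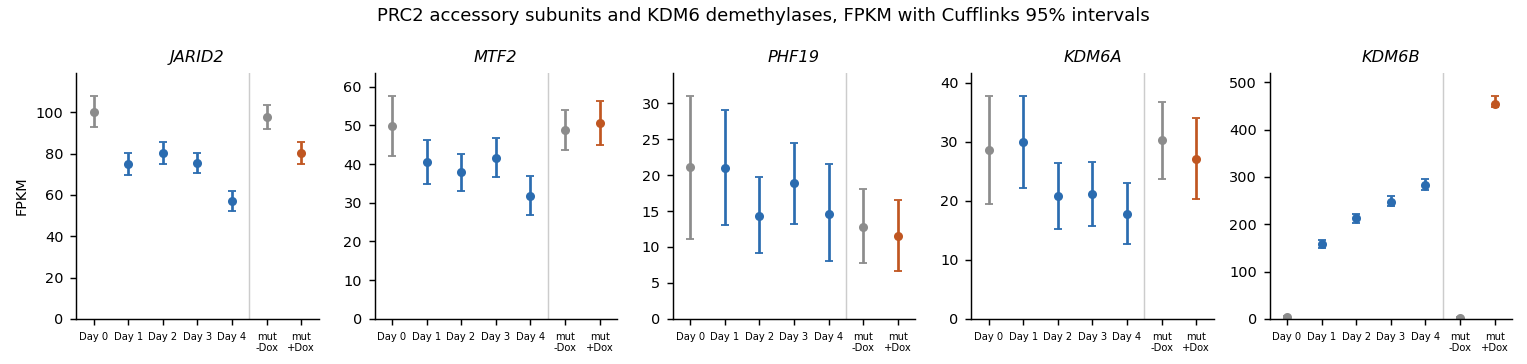
FPKM (vertical axes, linear from 0) of the accessory subunits and the KDM6 demethylases in the 7 libraries, with the Cufflinks 95% intervals as bars; colors as untreated (gray), JMJD3c with Dox (blue) and mutant with Dox (orange). JARID2 is at 100.3 FPKM at Day 0 and 57.2 at Day 4, and MTF2 at 49.8 and 31.8, while the mutant with Dox is at 80.3 and 50.5; KDM6B holds the transgene reads.

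FPKM is a level per length, so members can be ordered within a library. KDM6B with Dox is an exception, since its transgene holds only the catalytic part while FPKM is scaled to the annotated transcripts. At Day 0 the order was RBBP4, JARID2, MTF2, KDM6A, EZH2, PHF19, EED, SUZ12, EZH1 and KDM6B. Of these neighbors the intervals were apart only between JARID2 and MTF2 and between MTF2 and KDM6A. At Day 4 it was KDM6B, RBBP4, JARID2, EZH2, MTF2, KDM6A, EED, SUZ12, PHF19 and EZH1, so that EZH2 stood above MTF2, with overlapping intervals, and above KDM6A, with intervals apart. JARID2 was 3.65 times EZH2 at Day 0 (allowed range 2.78 to 4.97), 3.15 times in the untreated mutant line (2.61 to 3.87), 2.40 times in the mutant line with Dox (1.97 to 2.96) and 1.38 times at Day 4 (1.105 to 1.74). MTF2 was 1.81 times EZH2 at Day 0 (1.26 to 2.65), 1.58 and 1.51 times in the mutant line, and 0.766 times at Day 4 (0.565 to 1.03). Both ratios were lowest at Day 4, with ranges apart from those of the 3 libraries without active JMJD3c. KDM6A was 1.04 times EZH2 at Day 0 and 0.429 times at Day 4, with ranges that overlapped (0.582 to 1.74 and 0.269 to 0.645).

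**Figure D3:**
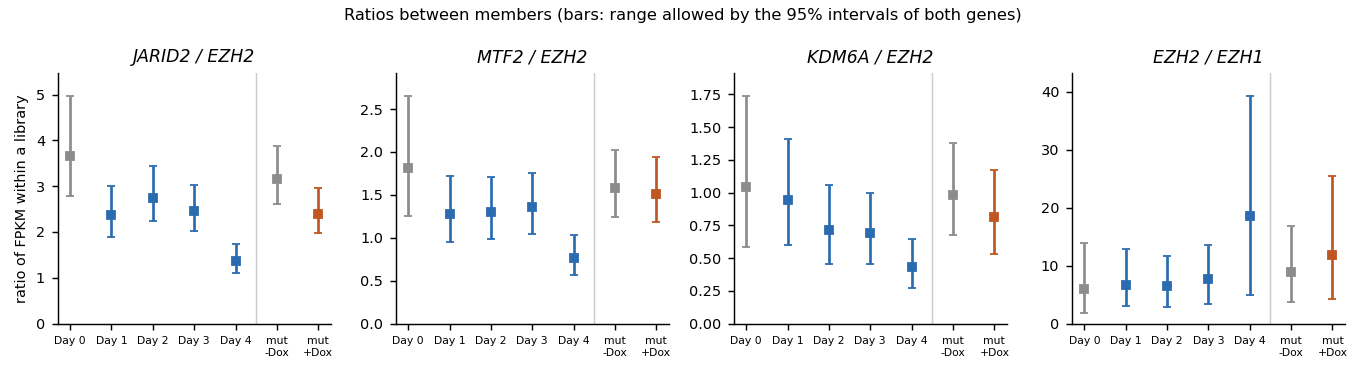
Ratios of FPKM between members within each library (vertical axes, linear from 0), with bars for the range that the 95% intervals of both genes allow; gray is untreated, blue JMJD3c with Dox and orange the mutant with Dox. JARID2 to EZH2 goes from 3.65 at Day 0 to 1.38 at Day 4, and EZH2 to EZH1 from 6.01 to 18.6 with wide bars.

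Of the 10 members, 1 (KDM6B, through its transgene) was called higher and 1 (EZH1) lower against Day 0, where 5.87% and 7.56% of the 10247 genes above 4 FPKM were called by the ratio cutoff. With 10 members, a count of 1 is near this background and is not a result about them. Against the untreated mutant line 1 was called higher and 0 lower, with backgrounds of 7.05% and 3.90%. In the mutant line, Dox gave 1 call higher (KDM6B) and 0 lower, with backgrounds of 1.25% and 1.53%. At Days 1, 2 and 3 only KDM6B was called, higher each day, with backgrounds of 3.48%, 3.90% and 4.73% for higher and 3.27%, 4.24% and 4.48% for lower. Between Day 4 and the mutant line with Dox no member was called (backgrounds 6.56% higher and 3.00% lower), and none was called between the untreated lines (2.78% and 7.01%). Without KDM6B, the median log2 fold change of the 9 members at Day 4 was -0.51 against Day 0 and -0.17 against the untreated mutant line, beside -0.06 and -0.02 over all genes tested. Day 0 is shared by the comparisons of all days. The 9 members split into 4 higher and 5 lower than at Day 0, where 44.8% of genes tested were higher. Against the untreated mutant line they split into 2 higher and 7 lower, where 48.4% of genes were higher. Of those 7, EED (-0.02) and SUZ12 (-0.09) differed least.

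By the intervals, 2 of the 10 members, JARID2 and MTF2, were lower at Day 4 than in each of the 3 libraries without active JMJD3c, and none was higher. Among 10533 genes above 4 FPKM, 1.97% were lower and 2.62% higher by the same rule, and among 7677 genes above 10 FPKM the shares were 2.45% and 2.80%. The rule was chosen after seeing the data, and these shares were not matched to the members for read number, on which interval width depends. KDM6B does not enter the count of members as higher because the mutant line with Dox was above it. Against Day 0 alone, 2 of the 9 members without KDM6B were apart and lower (JARID2 and MTF2) and 1 was apart and higher (EZH2), beside 7.00% and 5.15% of genes. At Days 1, 2 and 3 against Day 0 the only one apart was JARID2, lower each day, beside 2.54%, 4.49% and 4.34% of genes lower and 1.45%, 2.73% and 4.45% higher. In the mutant line 1 of the 9, JARID2, was apart and lower with Dox, beside 1.68% of genes, and 0 were higher, beside 1.47%. Day 4 against the untreated mutant line gave 3 lower (KDM6A, JARID2 and MTF2) and 1 higher (EZH2), beside 9.96% and 8.65%. Day 4 against the mutant line with Dox gave 2 lower (JARID2 and MTF2) and 0 higher, beside 8.67% and 7.58%. Between the untreated lines 1 of the 9, SUZ12, was apart and higher in the mutant line, beside 6.79%, and 0 were lower, beside 6.93%. From one day to the next, intervals of the 9 were apart for JARID2 and EZH2 from Day 3 to Day 4, beside 2.64% of genes lower and 1.65% higher. From Day 1 to Day 2 (1.51% of genes higher and 1.82% lower) and from Day 2 to Day 3 (2.16% and 1.27%), none of the 9 were apart.

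**Figure D4:**
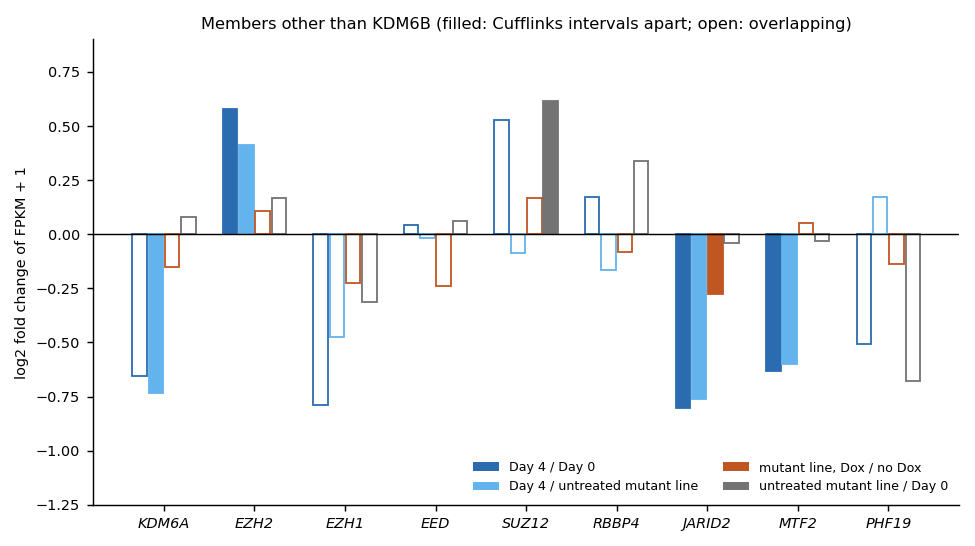
Log2 fold changes of FPKM + 1 (vertical axis) for the 9 members other than KDM6B in 4 comparisons; filled bars have Cufflinks intervals apart and open bars have overlapping ones. JARID2 (-0.80 and -0.76) and MTF2 (-0.63 and -0.60) are lower at Day 4 against both untreated libraries, and SUZ12, PHF19, RBBP4 and EED differ in direction between these references.

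Set against all genes, the 9 members other than KDM6B lay within the main cloud of values. On the log2 scale, Dox gave -0.80 for JARID2 in the JMJD3c line and -0.28 in the mutant line. It gave 0.58 and 0.11 for EZH2, -0.66 and -0.15 for KDM6A, and -0.63 and 0.05 for MTF2. Whether the effect differed between the lines could not be tested with 1 library each.

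**Figure D5:**
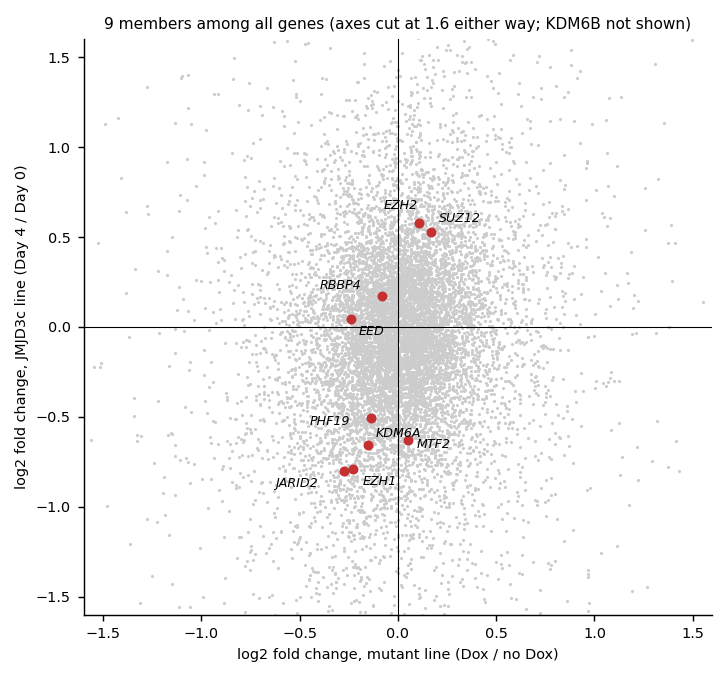
Log2 fold change with Dox in the mutant line (horizontal axis) and in the JMJD3c line at Day 4 (vertical axis), both from FPKM + 1, for the 9 members (red) and all other genes above 4 FPKM in any library (gray); genes beyond 1.6 either way are outside the axes. The members lie within the cloud, JARID2 at -0.28 and -0.80 and EZH2 at 0.11 and 0.58.

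Partners of these enzymes were counted from 4 lists in the same way. Of 6 further PRC2 cofactors, 0 were called at Day 4 against Day 0, beside 5.87% of genes higher and 7.56% lower, and 0 in the mutant line, beside 1.25% and 1.53%. Lists this small can hold no call at these shares, so the counts are given as a description. The 6 cofactors split into 3 higher, 2 lower and 1 at 0 in both, with a median log2 fold change of 0.04 beside -0.06 over all genes tested. RBBP7, the close relative of RBBP4, had 82.1 FPKM at Day 0 and 86.5 FPKM by Day 4. AEBP2, which like JARID2 belongs to PRC2.2, was listed at 20.7 and 13.8 FPKM, with overlapping intervals, beside 15.7 and 16.7 FPKM in the mutant line. C17orf96 (EPOP), a PRC2.1 cofactor named here after its values were seen, had 5.94 FPKM at Day 0, then 7.19, 8.72, 8.55 and 10.04 on the following days, and 4.24 and 5.46 FPKM in the mutant line. Its Day 4 interval (7.63 to 12.3) was apart from both mutant libraries (up to 5.40 and 6.96) and overlapped Day 0 (4.00 to 8.01). It was called higher against the untreated mutant line, at a ratio of 2.37. C10orf12, another cofactor named for the same reason, was called lower at Day 4 against the mutant line with Dox, at 2.08 and 4.17 FPKM, and had 3.37 FPKM before Dox.

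Of 9 genes of the KDM6A-containing methyltransferase complex, 0 were called at Day 4 against Day 0, beside the same 5.87% and 7.56%. Their intervals were apart for 1, DPY30, which was lower, beside 7.00% of genes lower and 5.15% higher. DPY30, a core subunit of such complexes, had 121 FPKM at Day 0 and 74.4 by Day 4, while the untreated mutant line had 84.6, with an interval overlapping that of Day 4. It was already at 74.1 FPKM at Day 1. ASH2L, another core subunit, had 42.2 FPKM at Day 0, 28.3 by Day 4 and 34.6 without Dox in the mutant line, with overlapping intervals. The H3K27 acetyltransferase EP300 was nearly level, from 19.7 to 22.1 FPKM over the 7 libraries. CREBBP, its close relative, had 11.5 FPKM (up to 16.9) at Day 0 and 19.4 FPKM (from 15.1) by Day 4, with overlapping intervals. Of 5 other demethylases, 0 were called in this comparison, with the same background. By the intervals 1, KDM5B, was apart and lower, beside 7.00% of genes lower and 5.15% higher. KDM5B, which removes methyl groups from H3 lysine 4, had 61.2 FPKM at Day 0 and 43.9 by Day 4. The mutant line had 54.8 FPKM without Dox and 53.6 with it. The Day 4 interval of KDM5B was apart from all 3, beside 1.97% of genes lower by this rule. KDM2B, a subunit of a PRC1 complex, had 59.1, 55.3, 43.0 and 50.8 FPKM in these libraries, with no interval apart at Day 4.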

How the data were processed

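RNA-seq values of 7 samples, 1 library each, were analysed. The authors prepared libraries from poly(A) RNA with a directional kit, sequenced 150-base single-end reads on a MiSeq, mapped them to hg19 with TopHat2 2.0.13 and deposited FPKM per gene with 95% bounds from Cufflinks 2.1.1. CASAVA 1.4 is named in the submitters' processing notes, and whether strand was used in counting is not given in the sources used here. Entries were joined by gene identifier and locus. Of the 22670 entries, 20187 lie on chromosomes and were used as background. The FPKM values do not give counts, so depth was estimated from the steps of low values in 1-exon genes, with 200 bases subtracted from their length. These estimates cover counting error only.

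Calls used the cutoffs of the paper (ratio above 2 or below 0.5, more than 4 FPKM). No test was possible with 1 library per group, and none of the values has a replicate spread. The range allowed for a ratio runs from the lower bound of the first value over the upper bound of the second to the reverse. All 10 members are named, from the other lists the 2 genes highest in mean FPKM and any that were called, and for members with a log2 range above 1 the 3 genes of most similar profile. The members and lists were chosen with earlier results of these data known. GC content came from GENCODE release 44 on GRCh37, the assembly of hg19, for 19507 of 20187 genes (96.6%). Promoters came from RefSeq (GRCh38.p14), and no coordinates were converted. Alternatives covered the cutoffs, pseudocount, scaling, entries sharing a name, intervals and GC content. The code was tested on simulated data. Python 3.11.15, numpy 2.4.6, pandas 2.3.3 and matplotlib 3.10.9 were used.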

Additional observations from a re-analysis of the deposited data

Results flagged for a closer look

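For 3 members the effect of Dox had opposite signs in the JMJD3c line (Day 4 against Day 0) and the mutant line, each with 1 library per condition, so the difference was not tested. The log2 fold change was -0.63 and 0.0504 for MTF2, 0.17 and -0.0838 for RBBP4, and 0.0446 and -0.24 for EED. Only for MTF2 were any of these intervals apart, in the JMJD3c line.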

How the results depend on the processing

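No paired analysis was possible because each condition has 1 library, and no replicate could be left out. For Day 4 against Day 0, the count of 1 member called lower (EZH1) became 0 with median-ratio scaling, upper-quartile scaling, equal totals without KDM6B, intervals required apart, the untreated mutant line as reference, or Day 3 as the treated sample. A ratio cutoff of 1.5 gave 2 members higher and 4 lower for Day 4 against Day 0. The same cutoff gave 3 lower against the untreated mutant line, 3 lower against the mutant line with Dox, and 1 higher and 1 lower between the untreated lines. KDM6B, with its transgene reads, was among those lower than in the mutant line with Dox. The share of all genes that pass a cutoff of 1.5 was not calculated, so these counts are a description only. The rule that the Day 4 interval be apart from all 3 libraries without active JMJD3c gave 0 higher and 2 lower, and was chosen after seeing the data, as were the comparisons of consecutive days. All other counts stayed within 1.5 times. Of 900 recalculated log2 fold changes of members, 11 moved beyond the range their intervals allow, and no called value changed sign. Some of the 900 could not move, since their setting left the fold change as it was. These were 80 values each for 1 FPKM as cutoff, no FPKM cutoff, ratio cutoff 1.5, intervals required apart and summed entries. Over all alternatives, Day 4 against Day 0 ran from -0.81 to -0.41 for JARID2, -0.73 to -0.25 for MTF2, -0.73 to -0.42 for KDM6A and 0.16 to 0.70 for EZH2. With the untreated mutant line as reference, SUZ12 (-0.09), RBBP4 (-0.17), EED (-0.02) and PHF19 (0.17) turned in direction, as did EED with the GC correction (-0.03) and with Day 3 as the treated sample (-0.13). Upper-quartile scaling moved the median of all genes by 0.12 at Day 4. Intervals were widest for EZH1 (63.2% to 135% of its FPKM on average to either side), and they overlapped between all libraries.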
